A study of Mus musculus with 6 samples.

Results

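Cytokines reach the nucleus of blood cells through the Janus kinases (JAKs) and the signal transducers and activators of transcription (STATs). A kinase sits on the cytoplasmic tail of a cytokine receptor, phosphorylates the receptor and the STAT bound to it when a ligand docks, and the STATs then pair and bind DNA. In the myeloid lineage *Jak2* and the STAT5 factors carry the signals of growth factors such as erythropoietin, thrombopoietin and interleukin-3, and *Stat3* those of the interleukin-6 family and of granulocyte colony-stimulating factor. Their mRNA levels were examined for 9 genes, chosen by name, *Jak1*, *Jak2*, *Jak3*, *Tyk2*, *Stat3*, *Stat4*, *Stat5a*, *Stat5b* and *Stat6*, out of 53458 genes in the quantified libraries. Signalling itself depends on phosphorylation, which RNA-seq does not measure.

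RNA-seq was performed on acute myeloid leukemia (AML) blasts from the bone marrow of 3 Cebpa-/p30 Tet2+/+ mice (19, 23 and 24) and 3 Cebpa-/p30 Tet2-/- mice (5, 7 and 8) on a C57BL/6 background, with 1 library per mouse, and the comparison asks what loss of the DNA demethylase TET2 adds to the *Cebpa* lesion. Both genotypes carried the p30 allele, which yields only the short isoform of the transcription factor C/EBPα, and had lost the other *Cebpa* allele. The blasts arose in lethally irradiated young adult female recipients of marrow from individual donors. The floxed alleles had been recombined by Mx1-Cre, which is driven by an interferon-responsive promoter and acts in many blood and other cells, after injection of Poly(I)-Poly(C), so all 6 mice, controls included, had received an inducer of interferon. Donor-derived cells were sorted without T-cell, B-cell and erythroid surface antigens from moribund animals.

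The libraries held 13036643 to 32855343 estimated counts, and each of the 9 genes had 442 to 9085 counts in every mouse, so all 9 passed the filter on low counts. Values are given as CPM, counts scaled to a common library size after TMM normalization, and a difference as the log2 fold change of Cebpa-/p30 Tet2-/- against Cebpa-/p30 Tet2+/+ blasts (Tet2-/- and Tet2+/+ hereafter) with its standard error (SE) from edgeR's quasi-likelihood test. *Tet2* itself stood at 73.6, 79.5 and 98.4 CPM in Tet2+/+ and at 111, 79.4 and 96.7 CPM in Tet2-/- blasts, a sum over all its exons that does not isolate the deleted part and therefore checks nothing about the labels. Blast markers were abundant, with a sum over 11 genes of 8125 to 11293 CPM and overlapping genotypes. *Mpo* was lower without overlap, at 4110 to 4527 CPM in Tet2+/+ and 2662 to 3394 CPM in Tet2-/- blasts. So was *Cd34*, at 170 to 310 and 32.2 to 132 CPM, while 0 of the 11 were higher in this way. Of all genes averaging 1 CPM or more over the 6 mice, 7.71% lay lower without overlap. The 10 markers other than *Mpo* summed to means of 5112 CPM in Tet2+/+ and 6648 CPM in Tet2-/- blasts, with overlap. The fold changes of *Elane* (log2 1.19, SE 0.64) and *Itgam* (0.76, SE 0.44) were above 0. Those of *Kit* (-0.61, SE 0.36) and *Ctsg* (-0.06, SE 0.3) were below 0, each with overlap. Mouse 7 stood apart: it had the highest sum of 9 mature neutrophil markers, 113780 CPM against 10641 to 61359 CPM in the other 5 mice, and the lowest TMM factor, 0.867 against 0.963 to 1.11. A single bulk value does not tell a smaller fraction of cells of a type from less RNA per cell.

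None of the 9 genes differed between the genotypes at an adjusted p of 0.05, and the smallest adjusted p, by edgeR with Benjamini-Hochberg adjustment over 22170 genes, was 0.644 for *Stat6*. Over all these genes 10 were lower (0.0451%) and 0 higher (0%) at that threshold, and 5.12% were lower and 3% higher at an unadjusted p under 0.05, which 0 of the 9 genes reached. DESeq2, run as an alternative, placed 326 genes (1.47%) below and 59 (0.266%) above at that threshold, and none of the 9 was among them. Of the 9 fold changes 7 were above 0, with a median of 0.19, against 7710 of the 13839 genes that averaged 1 CPM or more over the 6 mice (expressed genes hereafter), whose median was 0.05. *Stat6* was the only one of the 9 whose genotypes did not overlap, while 8.24% of the expressed genes were higher and 7.71% lower in this way.

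**Figure D1:**
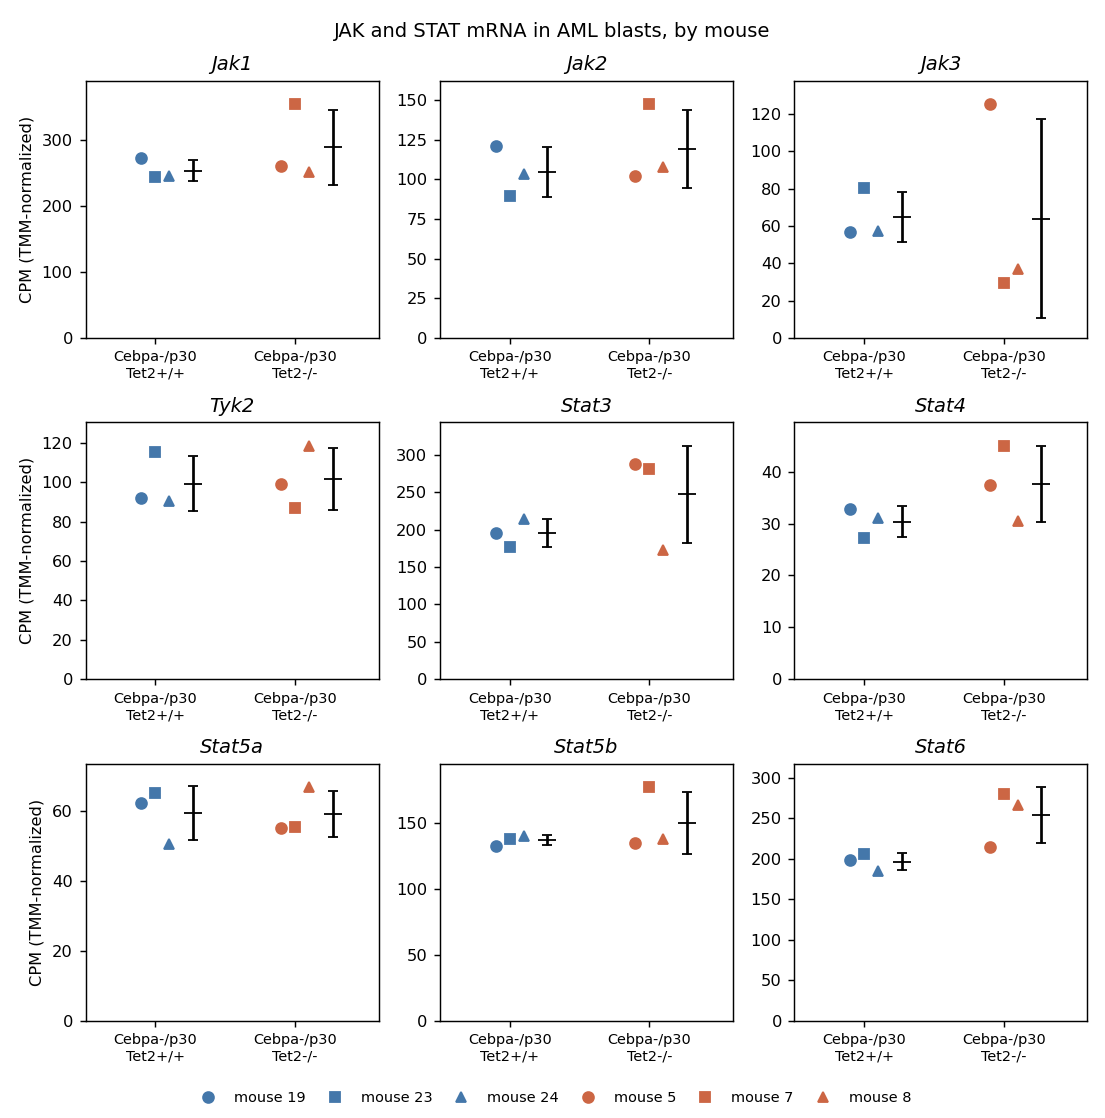
TMM-normalized CPM of the 9 genes (vertical axes, each from 0) in the 3 Cebpa-/p30 Tet2+/+ and the 3 Cebpa-/p30 Tet2-/- mice; a point is 1 mouse and the bars are the mean and SD of each genotype. Mouse 7 is the highest point for 5 genes, mouse 5 for *Jak3* alone stands far above its own group, and only for *Stat6* do all 3 Tet2-/- points lie above all Tet2+/+ points.

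*Jak1* (chr4:101152367-101265282, minus strand, GRCm38) encodes the kinase of the interferon, interleukin-6 and common γ chain receptors. It was the most abundant kinase, at 272, 243 and 245 CPM in Tet2+/+ mice 19, 23 and 24 and at 260, 354 and 252 CPM in Tet2-/- mice 5, 7 and 8. Mouse 7 alone lay above the range of the Tet2+/+ blasts, and the other 5 mice fell within 1 narrow band. The log2 fold change was 0.19 (SE 0.19, 95% interval -0.27 to 0.65, edgeR adjusted p = 0.848).

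*Jak2* (chr19:29251828-29313080, plus strand) encodes the kinase of the erythropoietin, thrombopoietin and β common chain receptors. It measured 121, 89.4 and 103 CPM in Tet2+/+ and 102, 147 and 108 CPM in Tet2-/- blasts. Mouse 7 was again highest, and the remaining Tet2-/- mice lay inside the Tet2+/+ range (log2 fold change 0.19, SE 0.21, 95% interval -0.30 to 0.67, edgeR adjusted p = 0.857).

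*Jak3* (chr8:71676296-71690575, plus strand) encodes the kinase dedicated to receptors that use the common γ chain and is best known from lymphocytes. Its level was 57.0, 80.3 and 57.1 CPM in Tet2+/+ blasts, but 125, 29.5 and 37.1 CPM in Tet2-/- blasts. Mouse 5 lay above every Tet2+/+ mouse and mice 7 and 8 lay below every one, a spread of 4.25-fold over the 6 mice and the widest of the 9 genes. The group means were 64.8 ± 13.4 CPM (SD, n = 3) and 64.0 ± 53.3 CPM (SD, n = 3), the log2 fold change was -0.02 (SE 0.53), and its 95% interval of -1.27 to 1.24 admits changes of either sign. Without mouse 5 the fold change became -0.97, with an edgeR adjusted p of 0.489. The library of mouse 5 was also the deepest, with 32855343 counts. The summed markers of 9 T-cell genes were 27.6 CPM in mouse 5, 49.0 CPM in mouse 7 and 17.4 CPM in mouse 8, against 32.5 to 41.8 CPM in Tet2+/+ blasts. Those of 8 natural killer (NK) cell genes were highest in mouse 5 (143 CPM) and lowest in mouse 8 (60.3 CPM), but *Nkg7* made up 43.7 to 80.0% of the sum, and the other 7 were at 40.4 CPM in mouse 5 against 31.4 to 62.5 CPM in Tet2+/+ blasts. Those of 4 plasmacytoid dendritic cell genes were highest in mouse 5 (54.7 CPM) and lowest in mouse 7 (20.0 CPM). *Siglech*, the defining marker, was similarly low in mice 5, 7 and 8, at 0.316, 0.386 and 0.434 CPM from 10, 6 and 8 counts, against 1.62 to 2.41 CPM in Tet2+/+ blasts. B-cell markers, 6 genes, were at 60.8, 22.6 and 51.1 CPM in mice 5, 7 and 8 and at 22.95 to 82.7 CPM in Tet2+/+ blasts. The part of these markers in the *Jak3* values was not tested.

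*Tyk2* (chr9:21104068-21131243, minus strand), the partner of JAK1 and JAK2 at type I interferon and interleukin-12 receptors, showed no separation. Tet2+/+ blasts measured 91.9, 116 and 90.6 CPM and Tet2-/- blasts 99.4, 87.0 and 119 CPM. Here mouse 7 was the lowest of the 6 (log2 fold change 0.03, SE 0.19, 95% interval -0.41 to 0.47, edgeR adjusted p = 0.982), and the sign turned to -0.14 when libraries were scaled by their size alone, a scaling that lowered the median fold change of all genes by 0.17.

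*Stat3* (chr11:100885098-100939540, minus strand) encodes the factor activated downstream of the gp130 and granulocyte colony-stimulating factor receptors. It stood at 195, 177 and 214 CPM in Tet2+/+ and at 287, 281 and 172 CPM in Tet2-/- blasts. Mice 5 and 7 lay above all Tet2+/+ mice, whereas mouse 8 was the lowest of the 6. The log2 fold change was 0.34 (SE 0.23, 95% interval -0.21 to 0.89, edgeR adjusted p = 0.759) and ranged from 0.21 to 0.54 as each mouse was left out in turn.

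*Stat6* (chr10:127642986-127660957, plus strand) encodes the effector of interleukin-4 and interleukin-13. It measured 199, 206 and 186 CPM in Tet2+/+ and 215, 281 and 266 CPM in Tet2-/- blasts, so the lowest Tet2-/- mouse exceeded the highest Tet2+/+ mouse by a small margin. The log2 fold change of 0.37 (SE 0.17, 95% interval -0.04 to 0.78) had an unadjusted p of 0.0699 and an adjusted p of 0.644 in edgeR. The two-sided exact permutation p over the mice was 0.1, the lowest value this design can give. The genotypes overlapped under scaling by library size alone and with length-scaled counts. The summed level of 7 monocyte and macrophage markers was likewise without overlap, at 1509 to 2433 CPM in Tet2+/+ and 2436 to 4081 CPM in Tet2-/- blasts, but *Ly6c2* alone made up 58.7 to 87.2% of it and was the 1 of the 7 markers without overlap. The other 6 summed to 511, 1005 and 460 CPM in Tet2+/+ and 514, 313 and 1587 CPM in Tet2-/- blasts, with mouse 7, the highest for *Stat6*, lowest. The part of these markers in the *Stat6* values was not tested.

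*Stat4* (chr1:51987148-52107189, plus strand), the effector of interleukin-12 in T and NK cells, was the least abundant of the 9 by CPM. Its values were 32.9, 27.2 and 31.1 CPM in Tet2+/+ and 37.4, 45.0 and 30.5 CPM in Tet2-/- blasts, with mouse 7 highest and mouse 8 inside the Tet2+/+ range (log2 fold change 0.31, SE 0.20, 95% interval -0.16 to 0.78, edgeR adjusted p = 0.741). Without 1 mouse the fold change ranged from 0.16 (without mouse 7) to 0.44. NK markers, 8 genes, summed to 93.8 to 111 CPM in Tet2+/+ and 60.3 to 143 CPM in Tet2-/- blasts, and the summed T-cell markers were highest in mouse 7 too. Their part in the *Stat4* values was not tested. With length-scaled counts the fold change was 0.07.

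*Stat5a* (chr11:100859351-100885169, plus strand) and *Stat5b* (chr11:100780731-100850724, minus strand) are neighbouring, closely related genes whose products mediate growth factor and interleukin-2 family signals. *Stat5a* was at 62.3, 65.1 and 50.6 CPM in Tet2+/+ and at 55.1, 55.4 and 66.7 CPM in Tet2-/- blasts, with the genotypes interleaved (log2 fold change -0.01, SE 0.17, 95% interval -0.41 to 0.40, edgeR adjusted p = 0.997). *Stat5b* was at 133, 138 and 140 CPM in Tet2+/+ blasts, the smallest spread of the 9 for its level after TMM normalization, though not with library size alone. In Tet2-/- blasts it measured 135, 177 and 138 CPM, so that only mouse 7 departed from the control range (log2 fold change 0.13, SE 0.17, 95% interval -0.26 to 0.53, edgeR adjusted p = 0.877). The ratio of *Stat5a* to *Stat5b*, in TPM of protein-coding transcripts, was 0.571 ± 0.0945 (SD, n = 3) in Tet2+/+ and 0.536 ± 0.128 (SD, n = 3) in Tet2-/- blasts, with a range of 0.401 in mouse 7 to 0.656 in mouse 8. Of the 75-base windows of the main *Stat5a* transcript 10.6% occur unchanged in *Stat5b* transcripts, and 7.76% of those of *Stat5b* in *Stat5a*, so part of the reads was divided between them by the quantification.

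**Figure D2:**
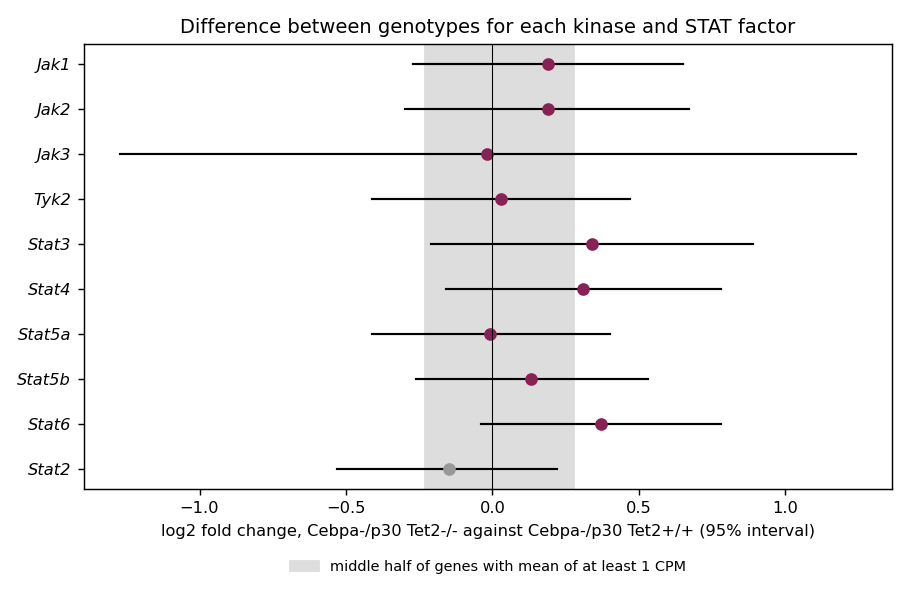
Log2 fold change of Cebpa-/p30 Tet2-/- against Cebpa-/p30 Tet2+/+ blasts (horizontal axis) for the 9 genes and, in grey, for *Stat2*, with the 95% interval of edgeR; the shaded band is the interquartile range of the 13839 expressed genes, -0.23 to 0.28. All intervals span 0, the interval of *Jak3* is the widest and that of *Stat6* comes closest to leaving 0 out.

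Mouse 7 had the highest level of *Jak1*, *Jak2*, *Stat4*, *Stat5b* and *Stat6*, 5 of the 9, where 25.2% of the expressed genes were highest in mouse 7. It was the lowest of the 6 for *Jak3* and *Tyk2*, and inside the Tet2+/+ range for *Stat5a*. With libraries scaled by their size alone *Stat6* was highest in mouse 8 instead. *Stat2*, a factor of the type I interferon response, was not highest in mouse 7, at 59.6, 74.7 and 74.2 against 59.7, 61.0 and 66.9 CPM. With mouse 7 left out, the fold changes of *Jak1*, *Jak2* and *Stat5b* came to 0.01, 0.01 and -0.0041, that of *Stat4* to 0.16 and that of *Stat6* to 0.29. The neutrophil marker sum and the TMM factor of mouse 7 accompany these values, and their part was not tested.

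Levels of different genes were compared per transcript length, in TPM, reads scaled by transcript length and then to the same total in every mouse. Summed over protein-coding transcripts only, the order of the means over 6 mice was *Jak1* (30.5 TPM), *Stat6* (29.7), *Stat3* (22.3), *Stat5b* (14.2), *Jak2* (13.1), *Tyk2* (10.6), *Stat5a* (7.76), *Stat4* (6.78), *Stat2* (6.70) and *Jak3* (6.497). Neighbours in this order had overlapping ranges at every step but 1: the lowest *Stat3* value, 17.5 TPM, exceeded the highest *Stat5b* value, 16.7 TPM. At 1 step with overlapping ranges, *Tyk2* above *Stat5a*, the order was nonetheless the same in all 6 mice. Summed over all annotated transcripts, which is how the gene totals are usually made, *Stat3* (78.4 TPM) and *Stat6* (72.6 TPM) headed the order and *Jak1* (45.3 TPM) followed. The choice of the coding sum was made after the transcript values had been seen.

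**Figure D3:**
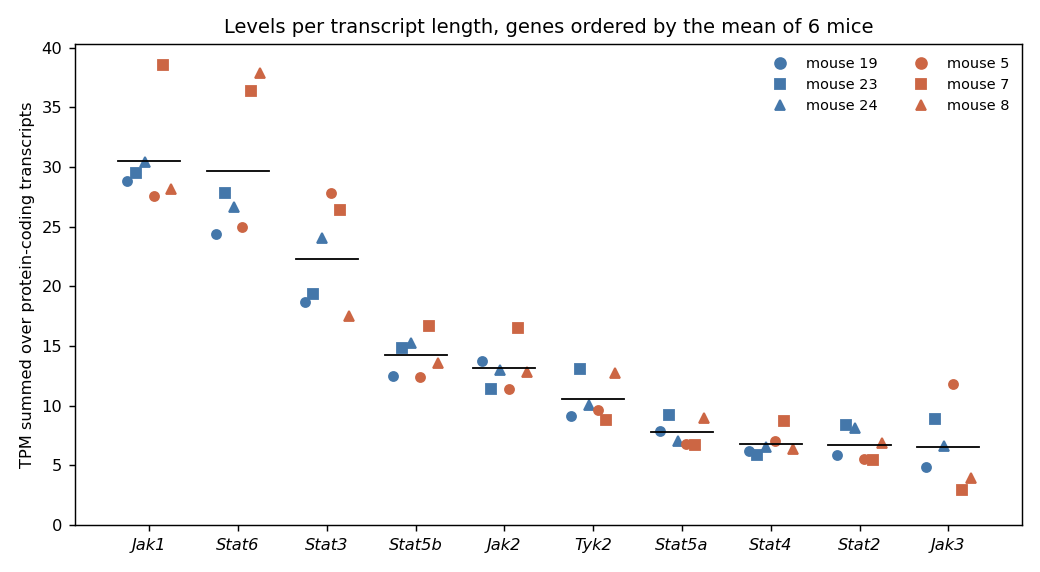
TPM summed over protein-coding transcripts (vertical axis, from 0) for 10 kinase and STAT genes, ordered by the mean of 6 mice (horizontal line); a point is 1 mouse. *Jak1*, *Stat6* and *Stat3* form the upper group, and *Jak3* has the largest spread for its level, from 2.90 to 11.8 TPM.

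For *Stat3* and *Stat6* the gap between the 2 sums came mainly from short non-coding transcripts, most of them with retained introns. That of *Jak1* came from processed transcripts, and that of *Jak3* mostly from *Jak3-204*, a retained-intron transcript of 4049 bases. Protein-coding transcripts held 83.4 to 88.0% of the *Stat3* reads but only 24.7 to 34.9% of its TPM, and 87.9 to 91.8% of the *Stat6* reads but 35.1 to 43.4% of its TPM, because TPM divides reads by length. *Stat3-213*, a retained-intron transcript of 396 bases, alone reached 15.8 to 24.7 TPM from 2.12 to 3.26% of the reads, and *Stat6-203*, of 341 bases, 17.6 to 29.5 TPM from 1.37 to 2.41% of the reads. For *Jak2*, with 2 annotated transcripts in these files, both coding, the sums were identical.

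The share of TPM carried by protein-coding transcripts was higher in Tet2-/- blasts, without overlap, for *Stat4* and *Tyk2*, where 7.69% of 8907 genes with both kinds of transcript were higher and 4.5% lower in this way. *Stat4* measured 58.5, 66.4 and 59.2% in Tet2+/+ and 67.7, 74.4 and 84.1% in Tet2-/- blasts. *Tyk2* measured 85.9, 89.5 and 82.4% against 92.1, 89.7 and 91.6%, so that mouse 7 lay just above mouse 23. Of the *Stat4* reads, the coding share was 91.3, 92.6 and 91.2% against 93.6, 94.6 and 97.0%. Most of its non-coding TPM came from *Stat4-204*, a retained-intron transcript of 607 bases with 45, 25 and 35 against 60, 23 and 10 reads. Exact two-sided permutation tests gave p = 0.1 for both TPM shares, the smallest possible. *Jak2* has no non-coding transcript, so its share was fixed at 100%, and the remaining genes overlapped.

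Within the pool of 4 kinases, *Jak1* supplied 56.5 ± 4.42% of the TPM summed over all annotated transcripts in Tet2+/+ and 58.5 ± 6.59% in Tet2-/- blasts (SD, n = 3 each). *Jak2* supplied 16.3 ± 1.47% and 17.1 ± 2.03%, *Tyk2* 16.0 ± 2.73% and 14.6 ± 3.78%. The share of *Jak3* varied most, from 4.15% in mouse 7 to 18.9% in mouse 5. The genotypes overlapped for all 4 shares, and exact two-sided permutation p ranged from 0.5 to 0.9 in a design whose smallest p is 0.1. Over protein-coding transcripts only, the mean shares in Tet2+/+ and Tet2-/- blasts were 49.5 and 50.7% for *Jak1* and 21.4 and 21.9% for *Jak2*. Those of *Tyk2* were 17.9 and 17.1% and those of *Jak3* 11.25 and 10.2%, and the genotypes overlapped for all 4 here too.

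The STAT3 protein is made in 2 forms by alternative splicing near the 3′ end of the transcript. The α form carries the C-terminal transactivation domain, and the β form replaces it with a short tail. The stretch that separates them is shown because the relative amount of the forms rests on it. In the α transcript *Stat3-203* (4516 bases) exon 23 of 24 begins with 50 bases at chr11:100889541-100889590 (GRCm38, minus strand) that the β transcript *Stat3-202* (6042 bases) splices out. They are given in capitals with 25 flanking bases on each side, read from the GENCODE M21 transcript.
*Stat3* α-specific stretch: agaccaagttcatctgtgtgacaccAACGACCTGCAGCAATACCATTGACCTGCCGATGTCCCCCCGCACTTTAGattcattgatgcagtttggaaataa

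*Stat3-203* measured 18.0, 18.5 and 22.98 TPM in Tet2+/+ and 26.9, 25.1 and 16.7 TPM in Tet2-/- blasts, and accounted for 79.8 to 85.4% of the gene's reads. *Stat3-202* measured 0.227, 0.234 and 0.268 TPM in Tet2+/+ and 0.266, 0.345 and 0.426 TPM in Tet2-/- blasts. For the share of the β form, α was summed over *Stat3-203*, *Stat3-201* (0.446 to 1.02 TPM) and *Stat3-207* (0 TPM in every mouse). The β form made up 1.22, 1.21 and 1.11% of α and β together in Tet2+/+ and 0.956, 1.31 and 2.43% in Tet2-/- blasts, with mouse 8 highest and mouse 5 lowest. The groups overlapped (exact two-sided permutation p = 0.7), as did the TPM of *Stat3-202*, whereas its normalized counts were higher without overlap (log2 fold change 0.59, SE 0.32, edgeR adjusted p = 0.846). The junctions around the 50 bases, the different 5′ ends and the longer 3′ end of *Stat3-202*, which overlaps the 3′ end of *Stat5a* on the other strand by 72 bases, inform this estimate, and the TruSeq v2 kit does not mark strand.

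*Stat4*, *Stat5a* and *Stat5b* are each listed with 2 starts in RefSeq, which makes their promoters the sequences on which the transcript shares bear. The RefSeq promoters (GRCm38.p6) of 250 bases before and 50 after each start are given 5′ to 3′ on the strand of the gene, with CpG dinucleotides, the sites at which DNA is methylated and TET2 acts, in capitals. The promoter of *Stat6*, the gene whose levels did not overlap, is given beside them. All 9 genes matched at least 1 entry, 12 entries in total, and among those shown the RefSeq starts of *Stat5b* and the downstream start of *Stat4* do not coincide exactly with the starts of the GENCODE transcripts.
*Stat4* upstream, chr1:51986898-51987197, plus strand: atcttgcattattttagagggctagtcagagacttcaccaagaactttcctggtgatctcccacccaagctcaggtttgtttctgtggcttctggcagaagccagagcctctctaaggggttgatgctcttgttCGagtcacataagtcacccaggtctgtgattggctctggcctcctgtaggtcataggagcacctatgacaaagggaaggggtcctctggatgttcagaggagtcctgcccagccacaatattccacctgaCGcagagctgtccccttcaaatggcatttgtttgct
*Stat4* downstream, chr1:52007990-52008289, plus strand: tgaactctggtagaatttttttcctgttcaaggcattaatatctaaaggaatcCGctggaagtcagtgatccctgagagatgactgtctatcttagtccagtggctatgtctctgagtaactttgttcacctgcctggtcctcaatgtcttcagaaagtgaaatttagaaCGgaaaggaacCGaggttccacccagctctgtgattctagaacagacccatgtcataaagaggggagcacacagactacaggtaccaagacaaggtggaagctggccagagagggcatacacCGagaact
*Stat5a* upstream, chr11:100859406-100859705, plus strand: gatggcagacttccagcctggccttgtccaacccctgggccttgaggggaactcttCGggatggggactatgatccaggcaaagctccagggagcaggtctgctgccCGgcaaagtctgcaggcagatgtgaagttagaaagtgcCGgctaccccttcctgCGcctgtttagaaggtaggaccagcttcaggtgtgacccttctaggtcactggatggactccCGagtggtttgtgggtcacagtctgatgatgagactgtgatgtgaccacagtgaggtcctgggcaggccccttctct
*Stat5a* downstream, chr11:100860234-100860533, plus strand: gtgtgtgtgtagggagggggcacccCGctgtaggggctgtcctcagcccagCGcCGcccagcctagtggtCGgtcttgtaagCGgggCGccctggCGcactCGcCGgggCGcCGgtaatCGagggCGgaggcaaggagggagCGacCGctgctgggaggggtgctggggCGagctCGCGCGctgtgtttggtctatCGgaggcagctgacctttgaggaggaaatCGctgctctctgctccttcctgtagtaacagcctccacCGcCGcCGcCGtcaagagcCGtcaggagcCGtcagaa
*Stat5b* upstream, chr11:100850532-100850831, minus strand: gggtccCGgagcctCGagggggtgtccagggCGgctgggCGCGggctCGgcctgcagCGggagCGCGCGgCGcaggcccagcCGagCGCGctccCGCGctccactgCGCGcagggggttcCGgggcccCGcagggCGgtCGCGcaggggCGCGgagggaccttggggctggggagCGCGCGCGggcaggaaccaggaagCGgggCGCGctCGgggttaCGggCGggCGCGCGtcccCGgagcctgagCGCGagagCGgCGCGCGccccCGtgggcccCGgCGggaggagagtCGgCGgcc
*Stat5b* downstream, chr11:100822521-100822820, minus strand: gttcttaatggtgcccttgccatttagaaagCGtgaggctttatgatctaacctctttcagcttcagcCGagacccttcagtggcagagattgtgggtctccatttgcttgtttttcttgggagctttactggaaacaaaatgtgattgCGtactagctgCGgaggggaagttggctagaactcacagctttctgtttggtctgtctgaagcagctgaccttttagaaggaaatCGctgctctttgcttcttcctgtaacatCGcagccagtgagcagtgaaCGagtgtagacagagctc
*Stat6*, chr10:127642736-127643035, plus strand: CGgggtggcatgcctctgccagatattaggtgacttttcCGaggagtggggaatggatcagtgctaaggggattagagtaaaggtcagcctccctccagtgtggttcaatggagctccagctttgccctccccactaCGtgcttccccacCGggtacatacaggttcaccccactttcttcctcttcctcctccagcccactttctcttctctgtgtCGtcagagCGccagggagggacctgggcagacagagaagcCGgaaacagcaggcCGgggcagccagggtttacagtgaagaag

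The promoters differed widely in CpG content. The upstream *Stat5b* promoter held 50 CpG sites, more than 99.1% of the 32851 mouse promoters of this length, and its downstream promoter 7, the median of all promoters. In *Stat5a* the order was inverse, with 5 sites upstream and 27 downstream. Both *Stat4* promoters were poor in CpG, with 2 and 4 sites, and that of *Stat6* held 8. *Jak2* (44 sites), *Jak1* (29) and *Tyk2* (23) have CpG-rich promoters, *Stat3* has 15 sites and *Jak3* 9. The STAT core motif TTCNNNGAA, which reads the same on both strands, occurred in none of the 12 entries and in 8.3% of all promoters, and the C/EBP core TTGCNNAA, searched on both strands, in none of the 12 and in 10.8% of all. Only these letters in these windows were searched.

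At *Stat5b* neither start prevailed in every mouse. Transcripts from the downstream start (*Stat5b-202*) made up 48.6, 54.0 and 30.4% of the TPM of the 2 coding transcripts in Tet2+/+ and 47.0, 33.4 and 50.7% in Tet2-/- blasts. Mice 24 and 7, 1 of each genotype, had the low shares, and the groups overlapped (exact permutation p = 0.9). At *Stat4* the upstream start (*Stat4-202*) prevailed, and the downstream start (*Stat4-201*) contributed 21.2, 21.1 and 12.8% in Tet2+/+ and 28.9, 18.3 and 21.3% in Tet2-/- blasts (exact permutation p = 0.4). The CpG-poor upstream start also prevailed at *Stat5a*, where the downstream start (*Stat5a-203*) contributed 23.5, 30.2 and 25.4% in Tet2+/+ and 25.8, 12.8 and 21.6% in Tet2-/- blasts, with mouse 7 lowest (exact permutation p = 0.3). These tests are two-sided and unadjusted, 4 in number with that of *Stat3*, and the smallest p they allow is 0.1.

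**Figure D4:**
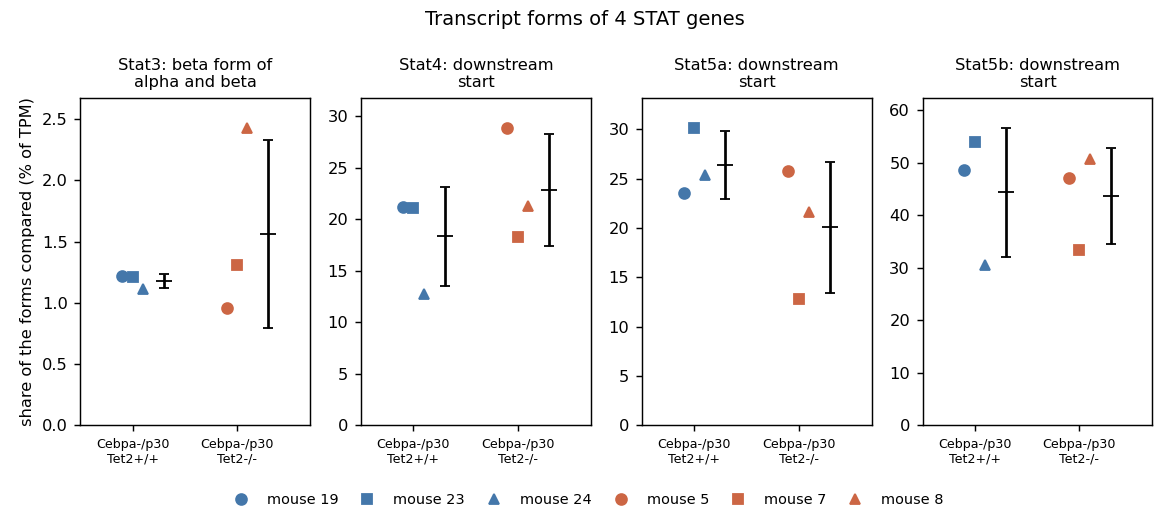
Share of TPM (vertical axes, from 0) of the *Stat3* β form among α and β transcripts and of the downstream-start transcript among the 2 starts of *Stat4*, *Stat5a* and *Stat5b*; a point is 1 mouse and the bars are the mean and SD of each genotype. The genotypes overlap in all 4 panels, mouse 8 is highest for *Stat3* β, and mouse 7 is lowest for *Stat5a*.

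Of the 54 transcripts of the 9 genes in the files 47 were tested, and 0 passed an adjusted p of 0.05 in edgeR, as did 0 of all 66893 transcripts (0% lower and 0% higher). At an unadjusted p under 0.05, which 2.85% of all transcripts reached as lower and 2.43% as higher, there was 1, *Jak1-203*, a short processed transcript at 0.794, 0.617 and 0.495 TPM in Tet2+/+ and 1.13, 1.96 and 1.68 TPM in Tet2-/- blasts (log2 fold change 1.38, SE 0.49, edgeR adjusted p = 0.846). It was singled out by its p. The genotypes did not overlap for 4 of the 47, against 12.3% of all tested transcripts. Among these was *Stat6-201*, which holds 87.1 to 91.8% of the *Stat6* reads, at 24.4, 27.8 and 24.3 TPM in Tet2+/+ and 24.96, 33.3 and 33.3 TPM in Tet2-/- blasts. By TPM it overlaps, since mouse 5 lies below mouse 23, whereas by normalized counts it does not. Limma on log2 TPM likewise called 0 of the transcripts of the 9 genes.

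Genes that overlap the 9 could share reads with them. *Gm28177*, a non-coding transcript on the strand of *Stat4*, holds 29.1% of the 75-base windows of *Stat4-202*, but was itself assigned at most 0.543 CPM. *Insl3*, which encodes a hormone of the testis and lies within the last part of *Jak3* on the same strand, stood at 3.23, 4.39 and 3.59 CPM in Tet2+/+ and 7.09, 2.06 and 1.52 CPM in Tet2-/- blasts, and so ran parallel to *Jak3* with mouse 5 highest. *1700084C06Rik*, antisense to *Tyk2*, did not reach the filter. *Nab2* (16.1, 16.7 and 9.65 against 10.8, 14.2 and 30.2 CPM) overlaps *Stat6* by 40 bases and *Raver2* (0.163 to 0.778 CPM) overlaps *Jak1* by 4. *Cdc37*, the kinase cochaperone gene that lies next to *Tyk2*, had overlapping groups of 153 to 181 and 153 to 235 CPM. No annotated gene lies within 5000 bases of *Jak2* or *Stat5b*.

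Among the 9174 genes that averaged 10 CPM or more, the profiles over 6 mice nearest to *Jak1* were *Epg5*, *Frmd8* and *Arhgap27*, with root mean square differences of centred log2 CPM of 0.0302, 0.0343 and 0.0358. Nearest to *Stat3* were *Irf2bp1* (0.0698), *Aldh4a1* (0.0741) and *Gcc1* (0.0782). The genes near *Jak1* share its peak in mouse 7, and those near *Stat3* its high values in mice 5 and 7.

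The surroundings of the kinases and factors were described with 113 pathway genes, of which 99 were tested and 81 averaged 1 CPM or more. None passed an adjusted p of 0.05 in edgeR, while 5 were higher and 4 lower at an unadjusted p under 0.05, against 3% and 5.12% of all tested genes. DESeq2, which placed 0.266% of all tested genes higher and 1.47% lower, called 3, *Il5ra*, *Ptpn1* and *Fcer2a*, with adjusted p of 0.00264, 0.0356 and 0.027. The genotypes did not overlap for 7 higher and 6 lower genes, 16.05% of the 81, against 16% of the expressed genes.

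The receptors of the β common family signal through JAK2 and STAT5. *Csf2rb*, the shared chain for interleukin-3, interleukin-5 and granulocyte-macrophage colony-stimulating factor, stood at 505, 399 and 329 CPM in Tet2+/+ and 739, 630 and 538 CPM in Tet2-/- blasts without overlap (log2 fold change 0.63, SE 0.24, edgeR adjusted p = 0.593). *Il5ra*, the ligand-binding chain for interleukin-5, measured 8.43, 22.0 and 12.1 CPM against 2.499, 4.69 and 1.74 CPM, every Tet2-/- mouse below every Tet2+/+ mouse (log2 fold change -2.26, SE 0.51, edgeR adjusted p = 0.318). Of 5 basophil and mast cell markers 3 were tested, with *Prss34* and *Fcer1a* under the filter. *Cpa3*, a mast cell protease gene, was at 264, 363 and 336 CPM in Tet2+/+ and 87.7, 47.5 and 16.8 CPM in Tet2-/- blasts without overlap, whereas *Mcpt8* overlapped and *Ms4a2* had a fold change above 0 (log2 0.48, SE 0.53). Eosinophil markers overlapped, at 256 to 298 and 136 to 325 CPM over 4 genes, and without *Siglecf*, the most abundant of them, they stood at 44.8 to 57.5 and 11.8 to 38.0 CPM, without overlap. Their part in *Il5ra* was not tested.

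Of the γ common and related receptors 1 of 9 was lower without overlap and none was higher, against 7.71% and 8.24% of the expressed genes. It was *Il2rb*, a chain of the interleukin-2 and interleukin-15 receptors, at 22.6, 27.4 and 63.0 CPM in Tet2+/+ and 22.0, 15.6 and 6.95 CPM in Tet2-/- blasts (log2 fold change -1.34, SE 0.53, edgeR adjusted p = 0.604). The common γ chain itself, *Il2rg*, had the highest TPM of this list over all transcripts, though *Crlf2* exceeded it over protein-coding ones, with 42.7, 55.6 and 57.3 against 82.3, 46.0 and 67.2 CPM. Of the interleukin-12 type receptors *Il12rb2* was lower without overlap (9.51, 8.51 and 4.37 against 1.80, 3.22 and 4.23 CPM, log2 fold change -1.28, SE 0.46, edgeR adjusted p = 0.585). *Il12rb1*, the shared chain, stood at 8.61, 5.03 and 7.11 against 5.57, 10.7 and 3.58 CPM. *Ncr1*, a defining NK cell receptor, was also lower in every Tet2-/- mouse, at 3.64 to 5.35 CPM against 0.488 to 1.42 CPM, as 1 of 8 NK markers without overlap. The sum of the 8 overlapped, at 93.8 to 111 and 60.3 to 143 CPM. *Nkg7*, the most abundant, had a fold change above 0 (log2 0.43, SE 0.33). The other 7 overlapped too, at 31.4 to 62.5 and 13.9 to 40.4 CPM. The part of these markers in *Il2rb* and *Il12rb2* was not tested.

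Among gp130 and leptin type receptors *Il6ra*, the interleukin-6 receptor, led at 159, 303 and 157 CPM in Tet2+/+ and 142, 139 and 317 CPM in Tet2-/- blasts, and *Il27ra* was the 1 of 6 without overlap (4.61, 3.16 and 3.31 against 2.25, 2.32 and 1.95 CPM, log2 fold change -0.76, SE 0.35, edgeR adjusted p = 0.638). Of the expressed genes 16% were without overlap in either direction, the share to set beside this and the following lists. *Csf3r*, the granulocyte colony-stimulating factor receptor, was the only expressed single-chain receptor of 5, and followed mouse 7 with 429, 260 and 531 against 617, 918 and 227 CPM. None of the 8 interferon and interleukin-10 type receptors separated the genotypes, *Ifngr1*, which binds interferon γ, standing at 189, 386 and 367 against 332, 156 and 310 CPM. It was first of the list in TPM over all transcripts and *Ifnar2* over protein-coding ones. Of 26 ligands 15 were tested and 6 were expressed, with 0 of the 6 free of overlap. *Il15*, first of the ligands in TPM over all transcripts but below *Osm* over protein-coding ones, was at 23.99, 21.3 and 22.0 against 13.6, 35.6 and 22.5 CPM.

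Negative regulators include the SOCS proteins, the PIAS proteins and the phosphatases that remove phosphate from kinases and STATs. Of 19 such genes 3 were higher without overlap and 0 lower, against 8.24% and 7.71% of the expressed genes, and 2 were higher at an unadjusted p under 0.05, against 3% of all tested genes. *Ptpn1*, a phosphatase that acts on JAK2 and TYK2, measured 163, 170 and 147 CPM in Tet2+/+ and 268, 251 and 214 CPM in Tet2-/- blasts (log2 fold change 0.61, SE 0.17, edgeR adjusted p = 0.456). *Ptpn11*, which encodes SHP2, measured 139, 127 and 109 against 150, 192 and 172 CPM (log2 fold change 0.45, SE 0.18, edgeR adjusted p = 0.604). *Pias4* was at 29.7, 26.5 and 30.1 against 38.6, 37.1 and 34.5 CPM (log2 fold change 0.35, SE 0.16, edgeR adjusted p = 0.633). The most abundant inhibitor per length, *Ptpn6*, which encodes SHP1, overlapped at 471, 580 and 576 against 413, 711 and 571 CPM.

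**Figure D5:**
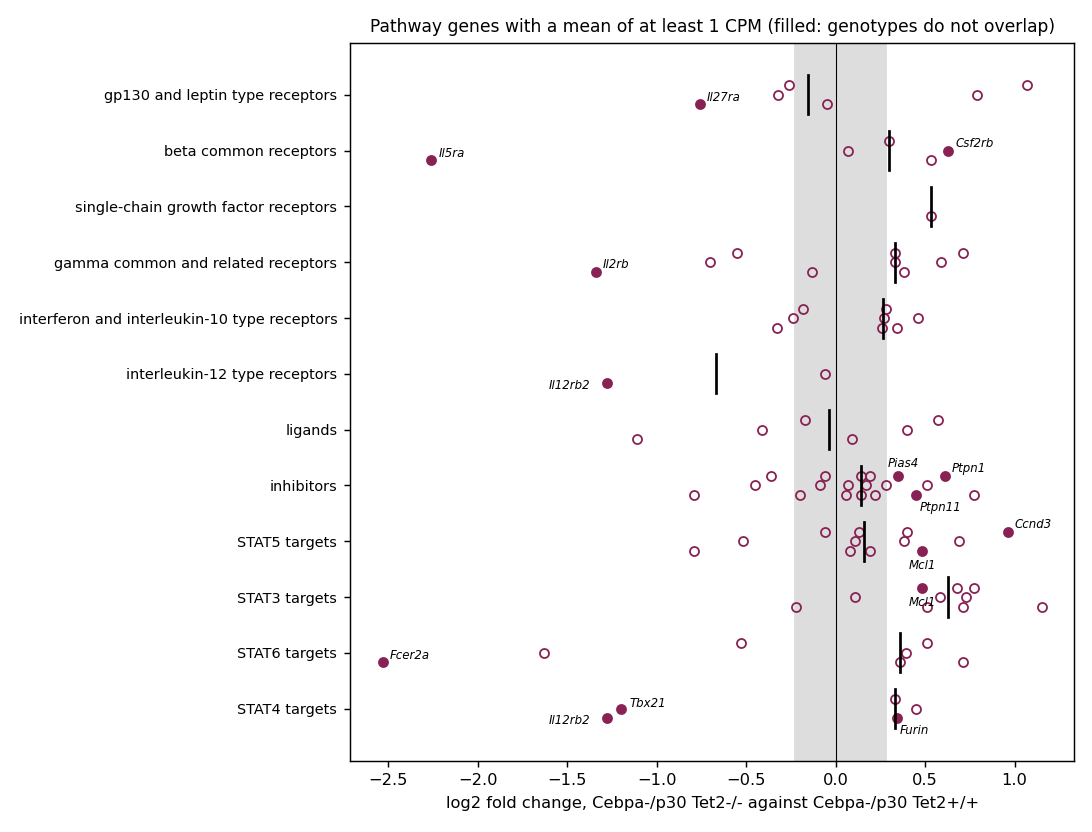
Log2 fold change of Cebpa-/p30 Tet2-/- against Cebpa-/p30 Tet2+/+ blasts (horizontal axis) for the expressed pathway genes, by list; a point is 1 gene, filled where the genotypes do not overlap, the vertical line is the median of the list and the shaded band the interquartile range of all 13839 genes, -0.23 to 0.28. The STAT3 targets have a median of 0.63 and no gene passed the adjusted threshold in edgeR.

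Genes known as targets of the factors were grouped by factor, with some genes in more than 1 group. Of the 10 expressed STAT3 targets 9 had a fold change above 0, with a median of 0.63, against 7710 of the 13839 expressed genes and a median of 0.05. Of the 10, 1 was higher without overlap, as were 8.24% of the expressed genes. In 9 of the 10 the highest level was in mouse 5 or 7, as in 8 of the 12 STAT5 targets, 41 of the 81 pathway genes and 43.5% of the expressed genes. The sum of the 9 neutrophil markers was also highest in these mice, at 113780 CPM in mouse 7 and 61359 CPM in mouse 5 against 23906 CPM in mouse 8 and 10641 to 55527 CPM in Tet2+/+ blasts, although mouse 5 lay below mouse 19 for *Ltf*, *Camp*, *Mmp8* and *Mmp9* and below mouse 24 for *Retnlg*. Their part in these values was not tested. The most abundant per length, *Junb*, measured 318, 363 and 346 CPM in Tet2+/+ and 410, 783 and 272 CPM in Tet2-/- blasts (log2 fold change 0.51, SE 0.37, edgeR adjusted p = 0.773).

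Of the 12 STAT5 targets 2 were higher without overlap and 0 lower, against 8.24% and 7.71% of the expressed genes, with a median of 0.16. *Ccnd3*, which encodes cyclin D3, was at 347, 270 and 256 CPM in Tet2+/+ and 551, 763 and 386 CPM in Tet2-/- blasts (log2 fold change 0.96, SE 0.29, edgeR adjusted p = 0.5001). *Mcl1*, an anti-apoptotic gene listed under STAT3 as well, was at 375, 351 and 343 against 473, 560 and 454 CPM (log2 fold change 0.48, SE 0.18, edgeR adjusted p = 0.592). The classical feedback target *Cish* ranged from 2.01 CPM in mouse 8 to 21.7 CPM in mouse 7 within the Tet2-/- group.

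Of 7 STAT6 targets 1 was lower without overlap and 0 higher, against 7.71% and 8.24% of the expressed genes. It was *Fcer2a*, the low-affinity IgE receptor, at 1.196, 7.44 and 3.10 against 0.601, 0.772 and 0.651 CPM (log2 fold change -2.53, SE 0.69, edgeR adjusted p = 0.451), beside B-cell marker sums of 22.95 to 82.7 and 22.6 to 60.8 CPM. *Cd79b* made up 50.1 to 91.5% of these sums, and the other 5 markers were at 25.4, 35.02 and 8.31 against 27.9, 8.49 and 4.34 CPM, low in mice 7 and 8. Their part in *Fcer2a* was not tested. The list median was 0.36. *Chil3*, its most abundant gene, spanned 2051 to 11894 CPM in Tet2+/+ and 1169 to 15468 CPM in Tet2-/- blasts. Of 5 STAT4 targets *Furin*, a proprotein convertase gene, was higher without overlap (144, 171 and 167 against 193, 206 and 212 CPM, log2 fold change 0.34, SE 0.16, edgeR adjusted p = 0.639), and *Il12rb2* and *Tbx21* were lower, against 8.24% higher and 7.71% lower among the expressed genes. *Tbx21*, the master regulator of T-helper and NK programmes, measured 1.495, 2.04 and 2.82 against 1.36, 1.09 and 0.271 CPM (log2 fold change -1.20, SE 0.62, edgeR adjusted p = 0.668). The NK marker *Ncr1* was lower in every Tet2-/- mouse as given above, but the sum of 8 NK markers overlapped, at 93.8 to 111 and 60.3 to 143 CPM. The part of these markers in *Tbx21* was not tested.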

How the data were processed

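RNA-seq of AML blasts was analysed for 3 Cebpa-/p30 Tet2+/+ and 3 Cebpa-/p30 Tet2-/- mice, 1 library each; samples were grouped by the labels. Per the labels and methods, unstranded TruSeq v2 libraries were sequenced for 75 cycles, and quantified with Salmon 0.12.0 (submitters' processing notes) through bcbio on GRCm38. The deposited estimated count values are Salmon's reads per transcript, not normalized between mice. The deposited TPM values were made by the authors with Salmon and are scaled by effective length to one total per mouse.

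Counts were summed to GENCODE M21 genes and rounded (0.0307 to 0.0416% of reads matched no gene). Genes with library-size-normalized counts summing to at least 10 were tested with edgeR 4.0.16 (quasi-likelihood, TMM, R 4.3.3), Benjamini-Hochberg threshold 0.05. The study's methods use tximport length-scaled counts with DESeq2, which was an alternative here (DESeq2 1.42.0), beside other filters, normalizations, robust estimation and leaving out each mouse; limma 3.58.1 on log2(TPM + 1) and log2(TPM + 0.1) was used for transcripts. The gene-level edgeR and DESeq2 fits were tested on simulated data. Depth sets the counting error, and the spread between 3 mice dominates (biological coefficient of variation 43.6%). Python 3.11.15, pandas 2.3.3 and matplotlib 3.10.9 were used otherwise.

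The genes and lists were chosen with earlier results of these data known. Named beside the 9 genes are *Stat2*, *Tet2*, *Cebpa*, neighbouring genes, the 3 nearest profiles of the top kinase and STAT among genes of at least 10 CPM, and per list the gene highest in TPM over all transcripts and up to 3 higher and 3 lower genes of at least 1 CPM without overlap. An item and the shares that need it are not reported here. Other genes named (*Jak1-203*, *Cish* and single markers) were chosen after their values were seen. Marker lists covered myeloid blasts, neutrophils, monocytes and macrophages, T, NK and B cells, plasmacytoid dendritic cells, erythroid cells, megakaryocytes, basophils and mast cells, and eosinophils.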

Additional observations from a re-analysis of the deposited data

How the results depend on the processing

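No paired analysis was possible because the mouse numbers of the 2 genotypes are not shared. Under 14 alternatives each, 0 of 126 fits of the 9 genes passed an adjusted p of 0.05 (smallest 0.489, *Jak3* without mouse 5). *Jak1*, *Jak2*, *Stat3*, *Stat4* and *Stat6* stayed above 0 under all 14 (with library size only at 0.002, 0.01, 0.15, 0.12 and 0.19), and the other 4 genes, all near 0, changed sign in 21 fits; the cause was not tested. *Tyk2* came to -0.14 with library size only, and to -0.02 with length-scaled counts in edgeR and in DESeq2. *Stat5b* came to -0.05 with library size only, a scaling that moved the median of all genes by -0.17. *Stat5a* came to 0.00068 with DESeq2, 0.0013 with RLE factors, 0.0042 with length-scaled counts, 0.01 with DESeq2 on these and 0.01 without the filter, which gave *Jak3* 0.01. Without 1 mouse, the ranges were -0.97 to 0.33 for *Jak3*, -0.09 to 0.14 for *Tyk2*, -0.11 to 0.05 for *Stat5a* and -0.0041 to 0.20 for *Stat5b*. Over all genes, 10 were called lower and 0 higher in edgeR. These became 326 and 59 with DESeq2, 322 and 64 with DESeq2 on length-scaled counts, 5 and 0 with length-scaled counts, 62 and 4 without the filter, and 1 higher with RLE factors or filterByExpr. Without 1 mouse, 0 to 7 were lower (7 without mouse 19, 2 without mouse 23, 1 without mouse 24, and 0 without mouse 5, 7 or 8) and 0 higher. Pathway genes without overlap numbered 9 to 17 higher and 7 to 13 lower without 1 mouse, where fewer samples overlap less easily. The kinase share differences moved by less than the spread between mice by CPM, by protein-coding TPM (an alternative added after seeing the data) and without each mouse. Limma gave *Stat5a-202* -0.02 with both pseudocounts and without the filter, and *Stat5b-202* -0.0037 with a pseudocount of 0.1 and -0.01 with 1, filtered or not. Without 1 mouse these ranged from -0.01 to 0.16 and -0.12 to 0.26, and *Stat5b-201* from -0.14 to 0.38.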

Other observations

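Plasmacytoid dendritic cell, megakaryocyte and erythroid markers had overlapping sums between the genotypes. Plasmacytoid dendritic cell markers, 4 genes, summed to 24.7 to 51.3 CPM in Tet2+/+ and 20.0 to 54.7 CPM in Tet2-/- blasts, and *Siglech* alone was lower without overlap. Megakaryocyte markers, 6 genes, summed to 28.6 to 51.1 and 14.0 to 30.7 CPM, with *Itga2b* lower without overlap. Erythroid markers, 7 genes tested, summed to 144 CPM in mouse 19 and 5.92 to 15.2 CPM in the other 5 mice.

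*Cebpa*, whose p30 allele both genotypes carry, measured 140, 194 and 287 CPM in Tet2+/+ and 158, 75.7 and 124 CPM in Tet2-/- blasts (log2 fold change -0.80, SE 0.35, edgeR adjusted p = 0.632). *Jak2* was assigned to 2 coding transcripts with the same ends, of which *Jak2-201* stood at 0 TPM in mice 23 and 7 and at 2.32 to 6.82 TPM in the other 4 mice.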
